A study of Mus musculus with 6 samples.

Results

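The Bcl2 family of cell death regulators was followed in mouse haematopoietic stem and progenitor cells through 10 genes, of 24063 gene symbols counted. Bok was selected on its log2 fold change between these groups, and Bax, Bak1, Bcl2, Bcl2l1, Mcl1, Bid, Bcl2l11, Bbc3 and Pmaip1 as its family. The 6 libraries are poly(A)-selected RNA of bone marrow LSK cells, sorted as lineage negative, Kit positive and Sca1 positive, from mice on a C57/BL6 background. In 3 libraries, labelled knockout, the mice carried floxed Arid2 (Arid2fl/fl), which encodes a subunit of the PBAF chromatin remodelling complex, together with the MxCre transgene. The 3 control libraries came from mice with MxCre and no floxed Arid2. Both groups received pIpC at 6 to 8 weeks of age, and cells were taken 6 weeks later. The Mx promoter answers to interferon, which pIpC induces, and is active in many tissues besides blood cells. The labels do not say whether libraries of a group came from separate animals, so p-values measure only the spread between these libraries.

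The family decides whether a cell's mitochondria release the proteins that start its death. Bax, Bak1 and Bok are effectors that can permeabilise the outer mitochondrial membrane. Bcl2, Bcl2l1 (which encodes BCL-XL) and Mcl1 hold effectors and their activators in check, and blood stem cells are known to depend on Mcl1. The BH3-only proteins BID, BIM (from Bcl2l11), PUMA (from Bbc3) and NOXA (from Pmaip1) relay stress signals by engaging the other members. BOK is the least understood effector: it lies largely at the endoplasmic reticulum, binds IP3 receptors, and is not held by the anti-death proteins as BAX and BAK are.

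Bok lies on chromosome 1 from 93685660 to 93695764 on the plus strand (mm10; ENSMUSG00000026278). The stretches before the start sites of Bok and of Bax are printed because they belong to a pair of effectors of which one differed 9.74-fold in RNA and the other did not pass the test. Each is the 250 bases before the RefSeq start (GRCm38.p6), 5′ to 3′ on the gene's strand, at chr1:93685325-93685574 for Bok and chr7:45466899-45467148 on the minus strand for Bax. Capitals mark the GC box GGGCGG or its reverse complement CCGCCC.
Bok: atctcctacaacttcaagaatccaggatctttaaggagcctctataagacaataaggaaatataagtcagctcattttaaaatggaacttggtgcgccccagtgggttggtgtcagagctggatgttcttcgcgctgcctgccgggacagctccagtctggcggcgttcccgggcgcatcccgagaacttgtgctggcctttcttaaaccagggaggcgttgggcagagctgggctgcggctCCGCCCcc
Bax: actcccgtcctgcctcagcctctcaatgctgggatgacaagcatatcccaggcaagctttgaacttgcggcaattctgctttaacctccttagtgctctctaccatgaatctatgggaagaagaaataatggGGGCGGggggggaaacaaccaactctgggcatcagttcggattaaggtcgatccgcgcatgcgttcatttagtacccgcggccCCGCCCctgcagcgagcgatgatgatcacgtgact
Bok had 1 such match, beginning 8 bases before the start, and Bax had 2, beginning 118 and 35 bases before it. At least 1 match stood in 32.7% of 32851 promoter windows of this length. CpG dinucleotides numbered 12 before Bok and 14 before Bax, against a median of 6 over all windows, and 36 before Bcl2. No window of the 9 members found in the table held TATAAA on either strand, a motif found in 12.4% of all windows. These are matches of letters, and no binding was measured.

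Library totals ran from 12408966 to 28185678 counted reads. Arid2 itself was 156 ± 6.15 CPM (counts per library total, after TMM scaling; SD, n = 3) in the libraries labelled knockout and 155.8 ± 8.46 in controls, so gene-level counts do not separate the groups, and the groups are called by their labels. By their Xist reads, all knockout libraries and control replicate 2 came from females, and control replicates 1 and 3 from males. A fit with a sex term therefore compares the knockout libraries with control replicate 2. Of the sort gate genes, Kit averaged 439 against 557.4 CPM and Ly6a, which encodes Sca1, 13.5 against 20 CPM. Summed markers of other cells also moved; over all genes tested, 3.85% were called higher and 4.58% lower (edgeR, adjusted p under 0.05). Neutrophil genes summed to 7169 to 9189 CPM in knockout against 2967 to 5742 in control libraries (4 of 11 higher, 0 lower), and monocyte and macrophage genes to 1967 to 2558 against 1245 to 1447 (5 of 8 higher, 0 lower). Erythroblast genes summed to 220.2 to 425 against 159.4 to 191.1 CPM (5 of 8 higher), and mast cell and basophil genes to 211 to 238.1 against 392.8 to 436.9 (3 of 5 lower, among them Gata2, which progenitors also express). B cell genes summed to 23.8 to 26.8 against 34.3 to 38.7 CPM (1 of 6 lower), T and NK cell genes to 238.9 to 310.4 against 197.6 to 269.9 (1 of 6 lower), and stroma and endothelium genes to 94.3 to 125.3 against 118.1 to 131.6 (1 of 4 lower). No marker in the table was at 0 in all libraries. The part of these cells in the results below was not tested, and in bulk RNA fewer cells of a type and less RNA per cell cannot be told apart.

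Bok was 9.74-fold lower in the libraries labelled knockout, the change for which it was chosen. Its level was 0.423, 0.363 and 0.481 CPM in knockout replicates 1 to 3 and 3.93, 3.66 and 4.75 CPM in control replicates 1 to 3. The groups were far apart, and the female control, replicate 2, lay with the male controls. These levels rest on 8, 9 and 6 reads in the knockout libraries and on 64, 103 and 69 in the controls. Exact Poisson 95% intervals, which cover counting error only, had their highest upper bound at 1.05 CPM in a knockout library and their lowest lower bound at 2.99 CPM in a control. The mean was 0.422 ± 0.0593 against 4.12 ± 0.569 CPM (SD, n = 3 each), and the fitted log2 fold change was −3.29 with an SE of 0.287, and −3.13 with the sex term. Leaving out each library in turn gave −3.37 to −3.17. These values are given as a description, without a test, since they chose the gene. Of 13679 genes tested, 8 had a lower log2 fold change than Bok. Bok was also a low gene: 8.71% of tested genes had a lower mean log2 CPM. It entered the test through its controls alone, as no knockout library reached the minimum of 0.557 CPM that the filter set and all 3 controls did. The other 9 members reached it in all 6 libraries.

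**Figure D1:**
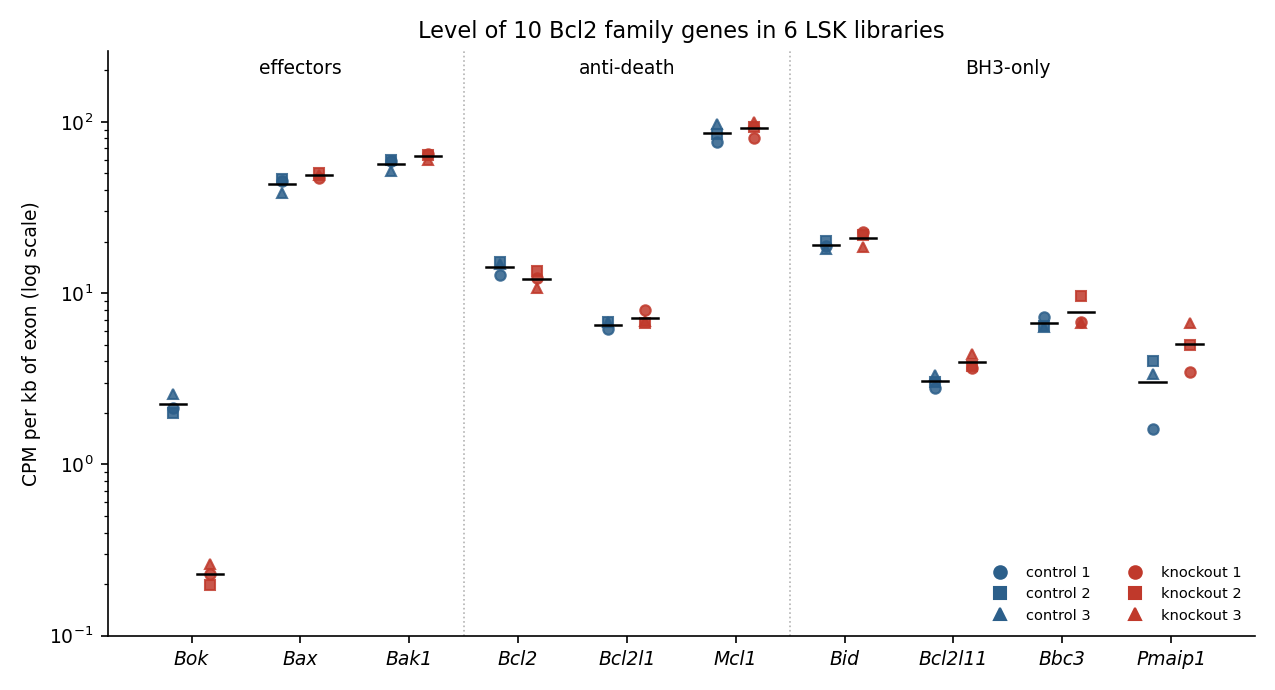
Level of each of the 10 members in each library, in CPM per kb of annotated exon on a log axis, with controls in blue, knockouts in red, a marker shape per replicate number and black lines at group means. Bok, chosen for its change, is the sole member whose groups stand far apart. Mcl1 is the highest in every library, and Bok the lowest except in control replicate 1, where Pmaip1 is lower.

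Divided by exon length, so that genes can be set side by side, the members spanned a wide range of levels. Mcl1 was the highest, at 88.6 CPM per kb over the 6 libraries (range 75.9 to 100.1). The effectors Bak1 (59.9, range 51.8 to 64.8) and Bax (46.1, range 38.6 to 50.4) came next, with no overlap between them. Bid (20.1, range 18.1 to 22.8) stood above Bcl2 (13.2, range 10.8 to 15.3). Bbc3 (7.2, range 6.32 to 9.63), Bcl2l1 (6.86, range 6.14 to 7.95), Pmaip1 (4.03, range 1.62 to 6.67) and Bcl2l11 (3.5, range 2.78 to 4.42) formed a lower set in which neighbours overlapped. Bok was last, at 2.24 ± 0.309 CPM per kb in controls and 0.23 ± 0.0322 in knockouts (SD, n = 3 each). It thus made up 2.21 ± 0.503% of the summed level of the 3 effectors in controls and 0.206 ± 0.0334% in knockouts. Bax made up 42.3 ± 0.782% and 43.6 ± 1.57%, and Bak1 the rest.

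The other 9 members did not pass the test in the main fit (edgeR, adjusted p under 0.05), which called 8.42% of all genes tested. At an unadjusted p under 0.05 there were 2 of the 9, Bcl2 and Bcl2l11, against 24.9% of all genes. DESeq2 called 1 of the 9 (11.6% of all genes it tested), limma-voom 0, and edgeR with the replicate number as a block 2, Bcl2l11 and Pmaip1 (15.9% of all genes). The log2 fold change was positive for 8 of the 9 and negative for Bcl2, with a median of 0.154, while 49.6% of all genes were positive with a median of -0.00156. Modelling sex moved the median of the 9 to 0.0882.

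Among the effectors, Bax had 73.8, 79.4 and 77.5 CPM in the knockout libraries and 71.3, 73.5 and 60.8 in the controls. All 3 knockout libraries were above all controls, by a narrow margin. The log2 fold change was 0.16 with a 95% interval of -0.02 to 0.35 (edgeR adjusted p = 0.256), and 0.07 with the sex term. Bak1, which like Bax forms pores in the mitochondrial outer membrane, had 156.1, 153.9 and 144.4 CPM against 142.5, 143.7 and 124.6. Its groups were also just apart, with the male control replicate 3 lowest. The log2 fold change was 0.15, interval -0.02 to 0.31 (edgeR adjusted p = 0.262), and 0.08 with the sex term. The 95% interval of the knockout to control ratio ran from 98.5% to 127.6% for Bax and from 98.5% to 124.1% for Bak1. Exons of Bak1 overlap the gene Ggnbp1 on the opposite strand, which averaged 5.56 against 6.22 CPM. Exons of Bax share 192 bases with Gm45808 on the same strand, which was not among the symbols counted.

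Bcl2, the anti-death member first found in lymphoma, had 111.7, 123 and 98.7 CPM in the knockout libraries and 116.3, 139.6 and 136 in the controls. Knockout replicate 2 lay above control replicate 1, so the groups overlapped. The log2 fold change was −0.23 with an interval of −0.46 to −0.01 (edgeR adjusted p = 0.189), and −0.33 with the sex term. Exons of Bcl2 share 558 bases with D630008O14Rik on the opposite strand, which was not among the symbols counted. Bcl2l1, which serves red cell and platelet survival, had 30.7 to 36.5 CPM in knockout and 28.2 to 31.1 CPM in control libraries. Its log2 fold change was 0.13, interval -0.09 to 0.35 (edgeR adjusted p = 0.463). Mcl1 had 276.4, 318.9 and 342 CPM in the knockout libraries against 259.3, 289.5 and 331.1, with the replicates of each group more spread than the groups. Its log2 fold change was 0.09, interval -0.15 to 0.34 (edgeR adjusted p = 0.653).

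**Figure D2:**
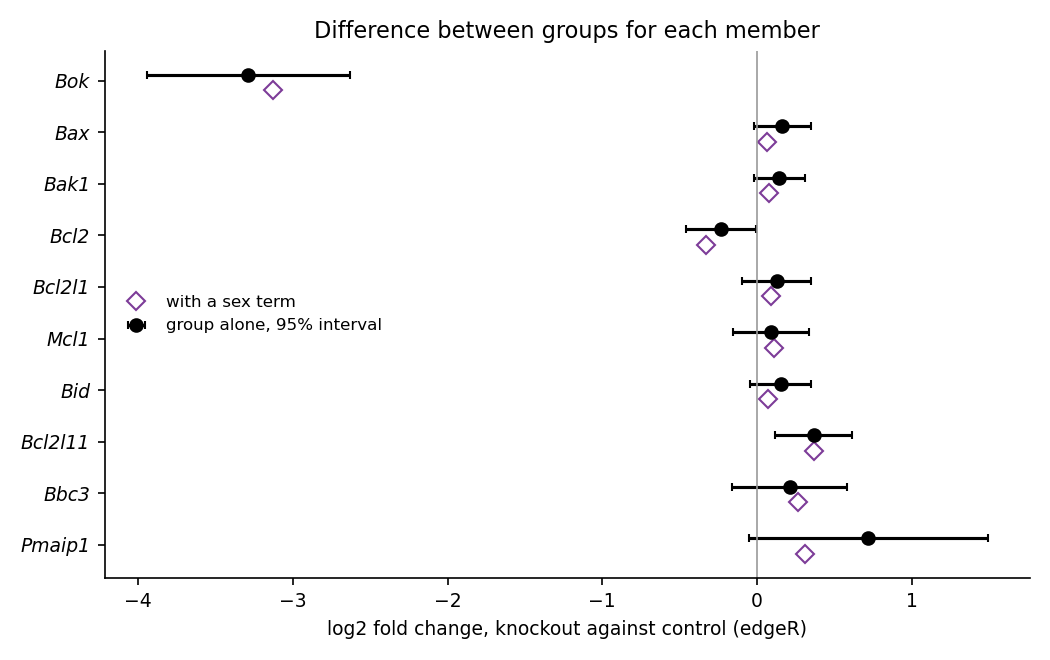
Log2 fold change of each member, knockout against control, from edgeR by group alone (black, with 95% intervals) and with a sex term (open diamonds). Bok, chosen for its change, lies at −3.29, while the other 9 lie between −0.23 and 0.72. Of those 9, the diamonds of Bax, Bak1, Bcl2l1, Bid and Pmaip1 lie nearer 0 than their black points. Those of Bcl2, Mcl1 and Bbc3 lie farther from 0, and that of Bcl2l11 hardly moves.

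Of the BH3-only genes, Bcl2l11 came nearest to the threshold. Its protein BIM binds all the anti-death members and drives the death of lymphoid cells deprived of cytokines. It had 29.3, 30.2 and 35.5 CPM in the knockout libraries against 22.3, 24.5 and 26.8 in the controls. No control reached the lowest knockout library. The log2 fold change was 0.37 with an interval of 0.12 to 0.62 (edgeR adjusted p = 0.0789), and 0.37 with the sex term, whose adjusted p was 0.431. DESeq2 called it, with an adjusted p of 0.0449. In all, 3 of the 9 (Bax, Bak1 and Bcl2l11) had no overlap between the groups and were higher in knockout, and 0 were lower, against 15.1% and 16.1% of all genes tested.

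Pmaip1 had the widest interval of the 9. Its product NOXA is a p53 target that binds MCL1 and promotes its breakdown. Levels were 9.46, 13.6 and 18.2 CPM in the knockout libraries and 4.43, 11 and 9.23 in the controls, and the groups overlapped. Control replicate 1 was the low one, and the female control replicate 2 lay inside the knockout range. The log2 fold change was 0.72, interval -0.05 to 1.49 (edgeR adjusted p = 0.231), and 0.31 with the sex term. It was 0.43 without control replicate 1 and 0.48 without knockout replicate 3. Without knockout replicate 1 it rose to 0.93, and without control replicate 2 to 1.02. Bbc3, whose product PUMA is another p53 target, had 14.4, 20.5 and 14.3 CPM against 15.5, 13.7 and 13.4. Knockout replicate 2 stood apart, and without it the log2 fold change went from 0.21 to 0.01 (edgeR adjusted p = 0.465 with all libraries). Bid, which caspase-8 cuts to link death receptors to mitochondria, had 66.1 to 81 CPM in knockout and 64.2 to 71.5 CPM in control libraries. Its log2 fold change was 0.15 (edgeR adjusted p = 0.319), and 0.07 with the sex term. Exons of Bid share 628 bases with Bcl2l13 on the opposite strand, which averaged 99.9 against 98.6 CPM.

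The balance of pro-death and anti-death members depended on how it was scored. Summed over the 7 pro-death members in CPM per kb and divided by the sum over the 3 anti-death members, it was 0.557, 0.448 and 0.31 in log2 units in the knockout libraries and 0.533, 0.412 and 0.066 in the controls. The groups overlapped, and control replicate 3 was the lowest. The difference of means, 0.101, was smaller than the SD of either group (0.124 and 0.243), and became -0.034 without control replicate 3. Removing Bok from the sum left the difference at 0.124. In a score that weighs each gene equally, the mean log2 CPM of the pro-death members less that of the anti-death members, Bok decided the direction. That score was 0.165 lower in knockout, with all 3 knockout libraries below all controls. The lower value follows from including Bok, which was chosen for its change. Without Bok the score was 0.306 higher, with all 3 knockout libraries above all controls. This score without Bok was added after seeing the data, which makes a lack of overlap more likely. No test is given for scores over chosen members.

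**Figure D3:**
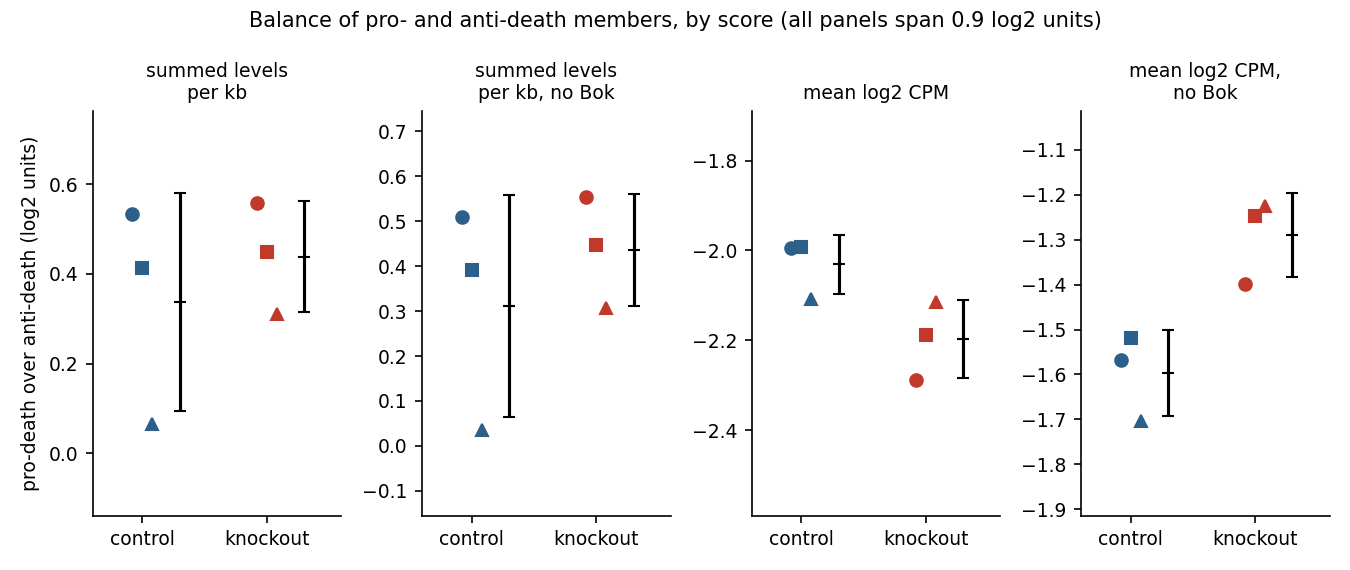
Pro-death over anti-death members in each library, in log2 units, by 4 scores, with the mean and SD beside the points; controls are blue, knockouts red, and marker shapes give the replicate number. The groups overlap in the summed scores. The equal-weight score is lower in knockout with Bok, which was chosen for its change, and higher without it. The equal-weight score without Bok was added after seeing the data.

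Within a library, a ratio of a pair of genes does not depend on gene length when compared between libraries. Pairs were chosen with the values of single genes known, which makes a lack of overlap more likely. The share of other gene pairs without overlap was not computed. The log2 ratio of Bax to Bcl2 was −0.598, −0.632 and −0.349 in the knockout libraries and −0.706, −0.926 and −1.16 in the controls, with no overlap. Bcl2l11 to Bcl2 was −1.81 ± 0.294 against −2.41 ± 0.089 (SD, n = 3 each), also with no overlap. Pmaip1 to Mcl1, the pair that bind each other, was −4.55 ± 0.319 against −5.25 ± 0.583, and control replicate 2, at −4.72, lay above knockout replicate 1, at −4.87. Within the anti-death side, Mcl1 made up 82.4 ± 2.49% of its summed CPM per kb in knockouts and 80.4 ± 1.2% in controls, and Bcl2 11 ± 1.62% and 13.4 ± 0.879%.

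The genes beside Bok are given with their own values, since Bok was chosen for its change and a comparison with it would be fixed by that choice. Of 9 other named genes of the count table within 200 kb on either side, 8 were tested and 0 passed (edgeR adjusted p from 0.543 to 0.913). Thap4, whose near edge lies 6171 bases beyond the end of Bok and which is read from the other strand, had 32.7 ± 2.2 against 34.8 ± 1.11 CPM (log2 fold change −0.09, interval −0.28 to 0.10). Stk25, a kinase gene 27001 bases to the other side, had 95.4 ± 2.66 against 96.6 ± 3.24 CPM (−0.02, interval −0.15 to 0.12). The 8 values ran from −0.15 for Farp2 to 0.05 for Atg4b. No annotated gene overlapped Bok in GENCODE M21.

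**Figure D4:**
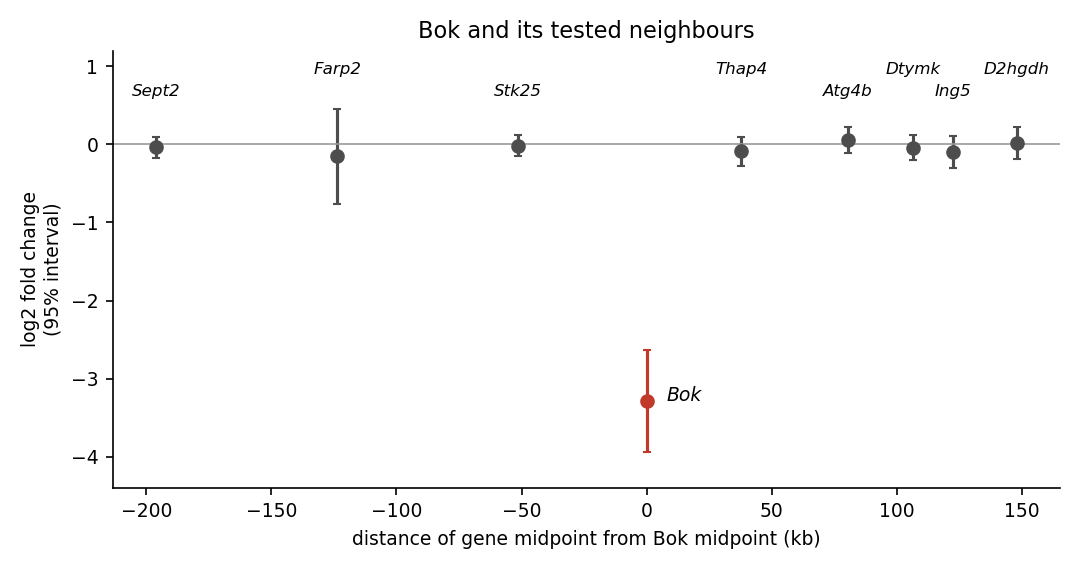
Log2 fold change with its 95% interval for Bok (red) and its 8 tested neighbours (grey), by distance of gene midpoints in kb. The neighbours lie between −0.15 and 0.05. Bok, at −3.29, was chosen for its change, so its distance from them is no test.

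The genes whose profile over the 6 libraries lay nearest to that of Bok were sought by the root mean square difference of centred log2 CPM among 12115 other tested genes. Gpr128, an adhesion G protein-coupled receptor gene, was nearest, at 0.274 log2 units, with 2.38, 2.9 and 3.05 CPM in knockout and 22.6, 32.6 and 28.9 CPM in control libraries. Kif7, a kinesin of hedgehog signalling, followed at 0.284, with 1.43 against 9.26 CPM on average. Tmem98 was at 0.289, Btbd11 at 0.303, Cd200, a surface glycoprotein of the immunoglobulin superfamily, at 0.37, and the fucosyltransferase gene Fut10 at 0.372. In all 6 genes every knockout library was below every control, as in 16.1% of all genes tested. The measure favours such a split and a large fall, since Bok has both. The log2 fold changes were −3.34 for Gpr128 and −2.69 to −2.47 for the other 5. Within the family the nearest to Bok was Bcl2, at 1.4, and the farthest Pmaip1, at 1.95.

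Elsewhere in the family, 3 of 12 further members tested were higher and 0 lower in knockout libraries (edgeR, adjusted p under 0.05; 3.85% of all genes tested were called higher and 4.58% lower). These were the near-identical copies Bcl2a1a, Bcl2a1b and Bcl2a1d, anti-death genes of myeloid cells whose reads cannot be assigned to one copy with certainty. The 3 calls may thus rest on shared reads, and 3 of 12 is not a count of independent genes. Bcl2a1b, the most abundant, had 3.65, 6.13 and 9.55 CPM against 0.984, 2.49 and 1.58. All knockout libraries were above all controls (edgeR adjusted p = 0.0344 for a log2 fold change of 1.87, SE 0.424), and the values of Bcl2a1a and Bcl2a1d were 1.99 and 1.6. The call was kept in 0, 2 and 3 of 6 leave-one-out fits for Bcl2a1a, Bcl2a1b and Bcl2a1d, and by none of them with the sex term (adjusted p = 0.401, 0.401 and 0.282). With limma-voom Bcl2a1a and Bcl2a1b lost it (adjusted p = 0.0832 and 0.0541). Summed neutrophil and monocyte markers were higher in the same libraries, as given above, and their part in this was not tested. The anti-death gene Bcl2l2 had a log2 fold change of 0.09 and the BH3-only gene Bad one of 0.27, and neither passed (edgeR adjusted p = 0.497 and 0.272). Bcl2l10 had no read in any library. This list and those below were chosen with earlier results of these data known. Their counts beside shares of all genes are therefore a description and no test.

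Downstream of the mitochondria, 2 of 18 genes of the caspase cascade and its inhibitors were higher and 0 lower, against 3.85% and 4.58% of all genes tested. Casp9, the caspase that the apoptosome activates, had 39.2, 34.7 and 38.8 CPM against 28, 25.9 and 27.1. The groups did not overlap (edgeR adjusted p = 0.0163 for a log2 fold change of 0.48, SE 0.0861). The call was kept in 4 of 6 leave-one-out fits and not with sex modelled, where the value was 0.54 (adjusted p = 0.158). Birc3, an inhibitor of apoptosis induced by NF-kB, had a log2 fold change of 0.38 (edgeR adjusted p = 0.0415; 1 of 6 such fits; 0.22 with the sex term). Apaf1, the scaffold of the apoptosome, had 0.20 and the nuclease gene Endog −0.22, and neither passed (edgeR adjusted p = 0.152 and 0.171).

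Of 11 death receptor pathway genes, 2 were higher, 2 lower and 7 did not pass, against 3.85% higher and 4.58% lower over all genes tested. Tnfrsf10b, the TRAIL receptor, had 1.27, 1.17 and 1.77 CPM against 3.01, 4.19 and 5.3. It was lower in every knockout library (edgeR adjusted p = 0.0185 for a log2 fold change of −1.60, SE 0.3). The call was kept in 4 of 6 leave-one-out fits, and modelling sex gave −1.61 (adjusted p = 0.178). Ripk3, a kinase of necroptosis, had 75.4, 74 and 71.3 CPM against 93.4, 93.2 and 92.5. Libraries within a group differed little (edgeR adjusted p = 0.0122 for a log2 fold change of −0.34, SE 0.0562), and the call was kept in 5 of 6 leave-one-out fits. Cflar, which restrains caspase-8, and Ripk1, which acts upstream of Ripk3, had 0.24 and 0.23 (edgeR adjusted p = 0.0404 and 0.0474), and both lost their call in all 6 such fits and with no filter on low counts (adjusted p = 0.0558 and 0.0647), Ripk1 also with limma-voom (0.0509). With the sex term, which called 0.314% of all genes, none of the 9 genes of these lists kept its call.

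**Figure D5:**
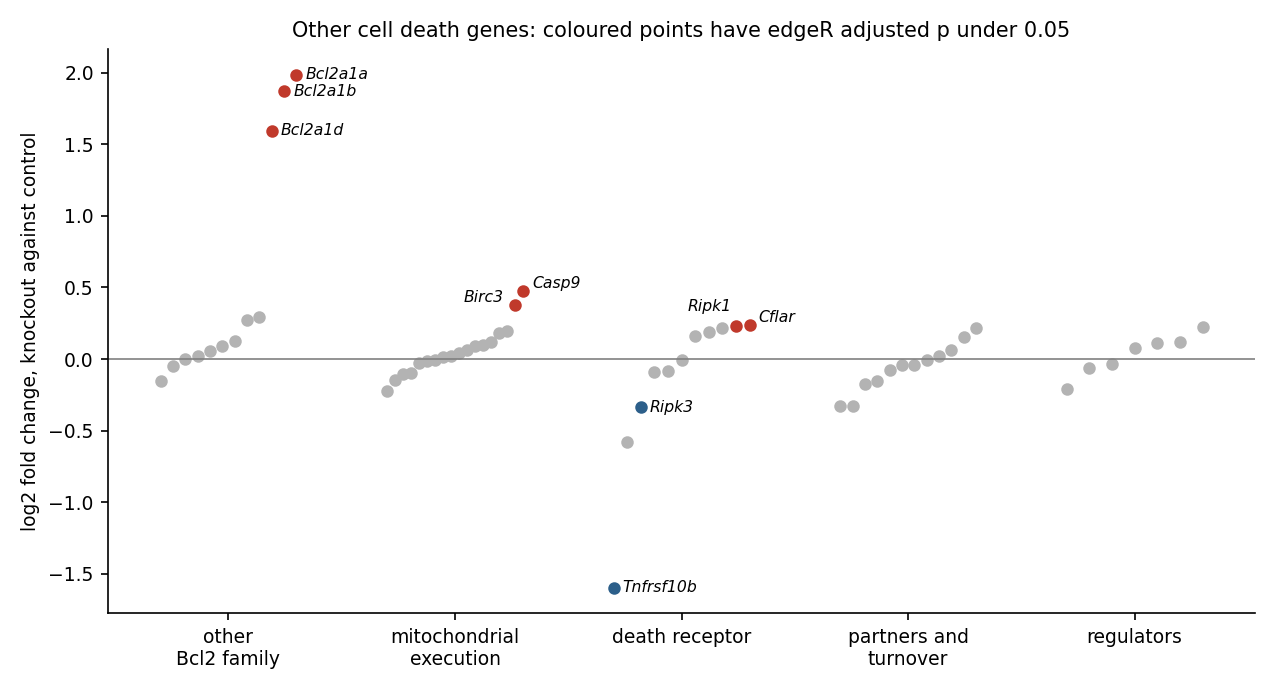
Log2 fold change of each tested gene of 5 cell death lists, ordered by value within a list; red and blue points are higher and lower with edgeR adjusted p under 0.05, and grey points did not pass. The Bcl2a1 copies and Tnfrsf10b have the largest values; no gene passed in the last 2 lists.

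Known partners of BOK and MCL1 and upstream regulators did not pass the test, with 0 of 12 and 0 of 7 called. At an unadjusted p under 0.05 there were 6 of the 12 and 1 of the 7, against 24.9% of all genes. The IP3 receptor genes Itpr1 and Itpr2 had log2 fold changes of −0.08 and 0.06. Itpr3 had 43.7 to 62.1 CPM in knockout and 64.7 to 72.4 in control libraries (−0.33, edgeR adjusted p = 0.127). March5 (0.22), a mitochondrial ubiquitin ligase, and Foxo3 (−0.21) and Foxo1 (0.22), transcription factors that can drive Bcl2l11, did not pass (edgeR adjusted p = 0.121, 0.157 and 0.265). Trp53 had 230 ± 3.45 against 239.7 ± 14.2 CPM (−0.06).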

How the data were processed

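RNA was measured in 6 libraries, 3 for each group. The authors deposited raw read counts per gene symbol, with no normalization; STAR and mm10 are named in the submitters' processing notes, while its version, the counter, the annotation and strandedness were not given in the sources used here. Genes were tested with edgeR 4.0.16 (R 4.3.3) on 13679 symbols passing filterByExpr (minimum count 10, minimum total 15), with TMM scaling, a quasi-likelihood F test on the group, and Benjamini-Hochberg adjustment over all symbols tested (threshold 0.05). Intervals are 95% intervals of the fit. Exon lengths and positions are from GENCODE M21 (union of exons), promoter sequences from RefSeq (GRCm38.p6; 9 of 10 members used). Log2 CPM used a prior count of 2. No library repeated another (chi-square per degree of freedom at least 10.2). On simulated counts for knockout against control (13541 genes), 83% of 2-fold and 96% of 4-fold changes were recovered, with 16 false calls among 195. Named were all members, every called gene of the 5 other lists with up to 2 near misses each, the 6 genes most like Bok, and its neighbours. Members and lists were chosen with earlier results of these data known. Alternatives were DESeq2 1.42.0 and its size factors, limma-voom (limma 3.58.1), no or a stricter filter (1 CPM in 3 libraries), a replicate block, a sex term (female above 100 CPM of Xist), and each library left out. Protein sequences were not used here.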

Additional observations from a re-analysis of the deposited data

How the results depend on the processing

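Bok had a log2 fold change of −3.37 to −3.13 under all 13 alternatives. This is a description and no test, since the same counts chose Bok for its change. None of the other 9 members changed sign. Of those 9, 0 passed in the main fit, 1 with DESeq2 (Bcl2l11) and 2 with the replicate block (Bcl2l11, adjusted p = 0.0207, and Pmaip1, 0.0268). The number of genes called was 1152 by group alone, 2172 with the replicate block, 43 with the sex term and 290 to 984 when a library was left out (530, 290 and 508 without knockout replicates 1 to 3, 473 without control replicate 1). Whether replicate numbers pair the libraries was not settled. Deviations of same-numbered libraries from their group means correlated at 0.293, -0.0048 and 0.339. Knockout replicates 1 and 3 correlated best with their own number, and knockout replicate 2 did not. Deviations within a group sum to 0, so with so few libraries these correlations cannot decide it. The block also called Tnfrsf1a and March5. The balance, 0.101 by summed levels, was -0.165 by mean log2 CPM and 0.306 by mean log2 CPM without Bok (the last added after seeing the data). Small values crossed 0: Arid2 was -0.00174 with no filter and -0.0323 to 0.0441 with a library left out, and Dtymk 0.0401 with the sex term. Leaving out a library gave -0.057 to 0.0045 for Sept2, -0.438 to 0.0381 for Farp2, -0.0456 to 0.00094 for Stk25, -0.0823 to 0.0107 for Dtymk and -0.0272 to 0.0639 for D2hgdh. The cause of these shifts was not tested. Few reads limit Bok in knockout libraries.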
